A study of Mus musculus with 162 samples.

Results

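Neutrophil genes were followed across 9 organs and 6 fasting times. The 10 genes are S100a8, S100a9, Ngp, Camp, Ltf, Lcn2, Retnlg, Mmp8, Cxcr2 and Csf3r, taken by symbol from the count table, where they are 10 of 53686 genes. The study fasted C57BL/6J male mice of 8 to 9 weeks for 0 h (fed ad libitum), 2, 8, 12, 18 or 22 h, with 3 mice at each time and all organs collected at the same clock time. Each of the 18 mice gave all 9 organs: olfactory bulb (OB), brain (BRN), cerebellum (CBL), brainstem (BST), stomach (STM), liver (LIV), interscapular brown fat (iBAT), perigonadal white fat (pgWAT) and posterior-subcutaneous white fat (psWAT). Animals are numbered here in order of fasting time and replicate, so that animals 1 to 3 were fed, 4 to 6 were fasted for 2 h, and so on up to animal 18. The descriptions of the mice mention no perfusion.

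S100a8 and S100a9 encode the 2 chains of calprotectin, the most abundant cytosolic protein of the neutrophil. Ngp, Camp, Ltf, Lcn2 and Mmp8 encode proteins of the secondary and tertiary granules, which are made while the cell matures in bone marrow, whereas Cxcr2, Csf3r and Retnlg are also transcribed in the mature cell. Several of the 10 have other known sources: Ltf in glandular epithelium, Lcn2 in hepatocytes and fat under acute-phase signals, S100a8 and S100a9 in squamous epithelium and monocytes, and Csf3r in other myeloid cells.

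All libraries but 5 were used, and these hold 3045845 to 27801717 gene counts, median 8735554, so that 3 counts equal 0.108 CPM (counts scaled to the library total) in the deepest and 0.985 CPM in the shallowest. Many member values lie near this floor, and intervals given below cover counting error only. In all libraries used but 1 the nearest organ mean was that of the library's own organ, the exception being psWAT 8 h replicate 1, nearest pgWAT. Of the libraries that stand apart from their organ, psWAT 12 h replicate 3 (animal 12) holds 2694 CPM of 4 cerebellar marker genes and pgWAT 22 h replicate 2 (animal 17) holds 24058 CPM of 5 epididymal genes. Farthest from the mean of their own organ were iBAT 22 h replicate 2 (animal 17; root mean square distance 1.18), BRN 18 h replicate 2 (1.15) and, within BRN, next 12 h replicate 2 (0.878). BRN 2 h replicate 3, named beforehand as standing apart, is only 8th of 16 in BRN (0.421). These are bulk tissues, so fewer cells and less RNA per cell cannot be told apart.

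Among the organs S100a8 was highest in psWAT, with 0, 5.79 and 260.4 CPM as the lowest, median and highest of 17 libraries, followed by pgWAT with 0.605, 3.42 and 11.9 CPM in 18. OB held 0.317, 3.08 and 37.4 CPM, and CBL 0, 0.705 and 11.7 CPM. All other organs overlapped at low levels, their medians lying between 0.132 CPM in STM and 0.610 CPM in BST. With organs ordered by mean log2(CPM+1), 2 of the 8 steps between neighbours passed edgeR's quasi-likelihood test with the Benjamini-Hochberg (BH) correction. S100a8 was higher in psWAT than in pgWAT (log2 difference 2.42, SE 0.58, adjusted p = 9.29e-05), a comparison in which 74.4% of 22113 genes passed, though its CPM was higher in psWAT in only 10 of 17 animals. It was higher in OB than in CBL (1.83, SE 0.59, adjusted p = 0.00585; 49.6% of genes passed) and in 16 of 18 animals. Both S100a8 calls held in every alternative, among them animal as a block (paired organs), and between BRN, BST, LIV, iBAT and STM no step passed except iBAT over STM with DESeq2 (1.55, adjusted p = 0.0306).

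**Figure D1:**
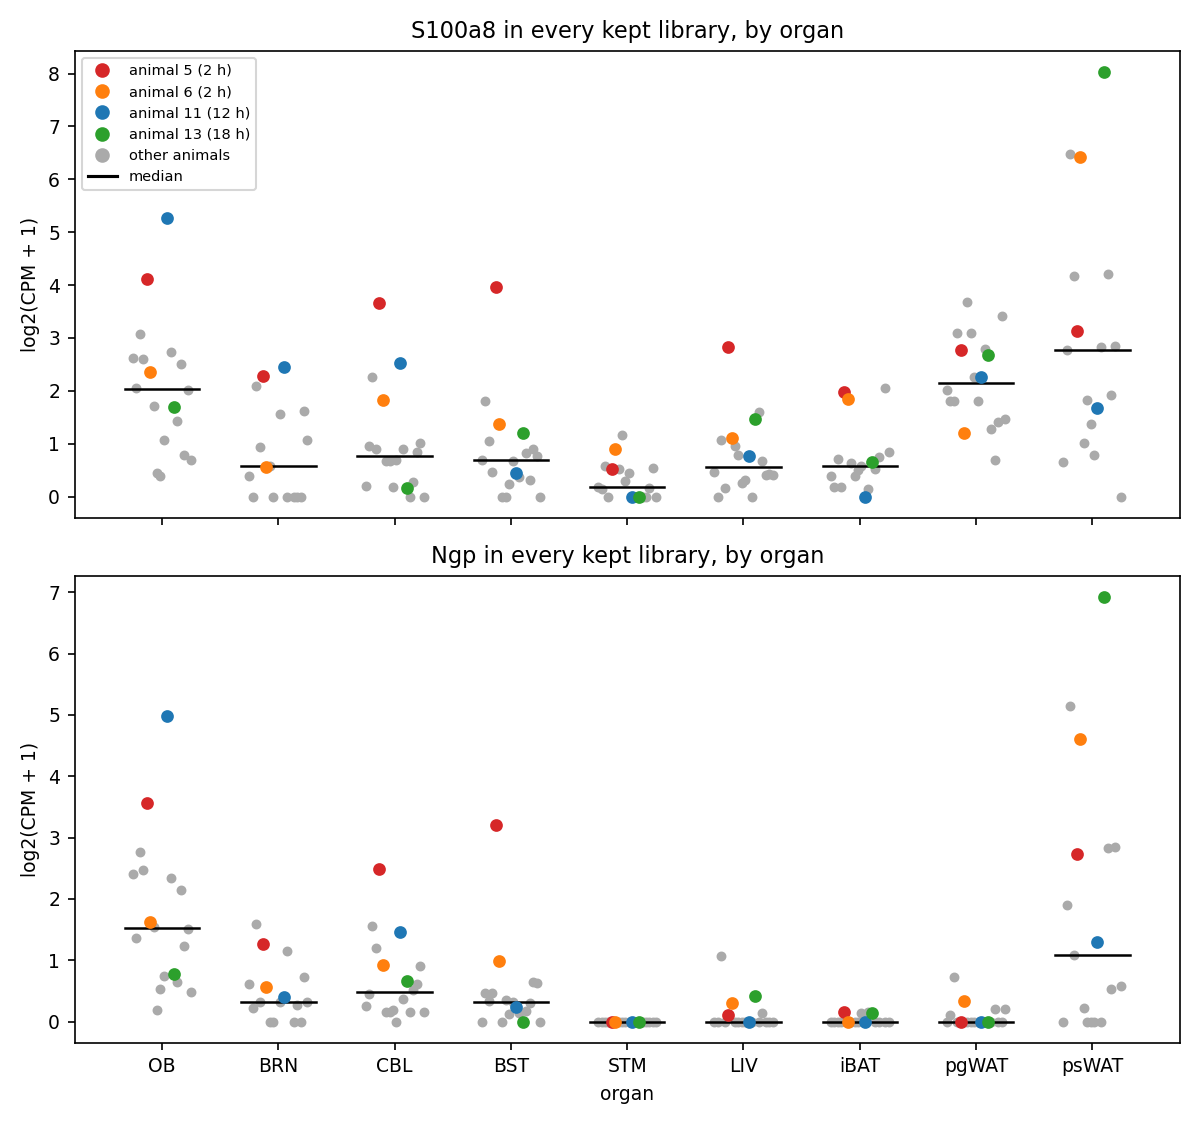
S100a8 and Ngp as log2(CPM+1) in every library used, by organ, with bars at the median. Animals 5, 6, 11 and 13 are coloured, so that the same animal can be followed from organ to organ.

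S100a9, the partner chain of S100a8, lay in 9 organs at 0.377 CPM (iBAT) to 6.76 CPM (psWAT) in the median, and 3 of its 8 steps passed. It was higher in psWAT than in STM (1.95, SE 0.55, adjusted p = 0.000897; 73.5% of genes passed), in 8 of 16 animals by CPM, a call lost with animal as a block (0.79, SE 0.48, adjusted p = 0.128) and without replicate 1. OB again exceeded CBL for S100a9 (1.83, adjusted p = 0.00306), in 16 of 18 animals. LIV exceeded pgWAT for S100a9 (1.60, adjusted p = 0.0157; 76.8% of genes passed), in 13 of 18 animals, lost without replicate 1 (adjusted p = 0.0684). STM held S100a9 at 0.661, 5.75 and 13.9 CPM while S100a8 there reached 1.25 CPM at most, so the 2 chains overlap in STM only under that level.

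The share of S100a9 in the summed counts of the pair, as the median of libraries with 10 counts or more, was 97.0% in STM (range 70.0 to 100%), 59.7% in LIV (45.5 to 82.4%), 57.5% in OB (33.3 to 70.0%), 57.1% in CBL (48.5 to 72.7%), 56% in BST (47.1 to 76.5%), 54.2% in BRN (17.1 to 100%), 54.1% in psWAT (30.8 to 68.8%), 48.4% in iBAT (9.09 to 55.6%) and 15.8% in pgWAT (0.667 to 62.5%). The median was highest in STM and lowest in pgWAT, and the ranges of most organs overlap. In single libraries the share was 59.3% in OB of animal 11 (95% Wilson interval 56.7 to 61.8) and 51.4% in psWAT of animal 13 (50.1 to 52.8). The S100a8 and S100a9 genes lie 22597 bases apart on chromosome 3. Per kilobase of exon, S100a9 had the highest median of the 10 genes in psWAT (12.95 CPM per kb, S100a8 8.34) and in OB (8.68, S100a8 4.44).

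**Figure D2:**
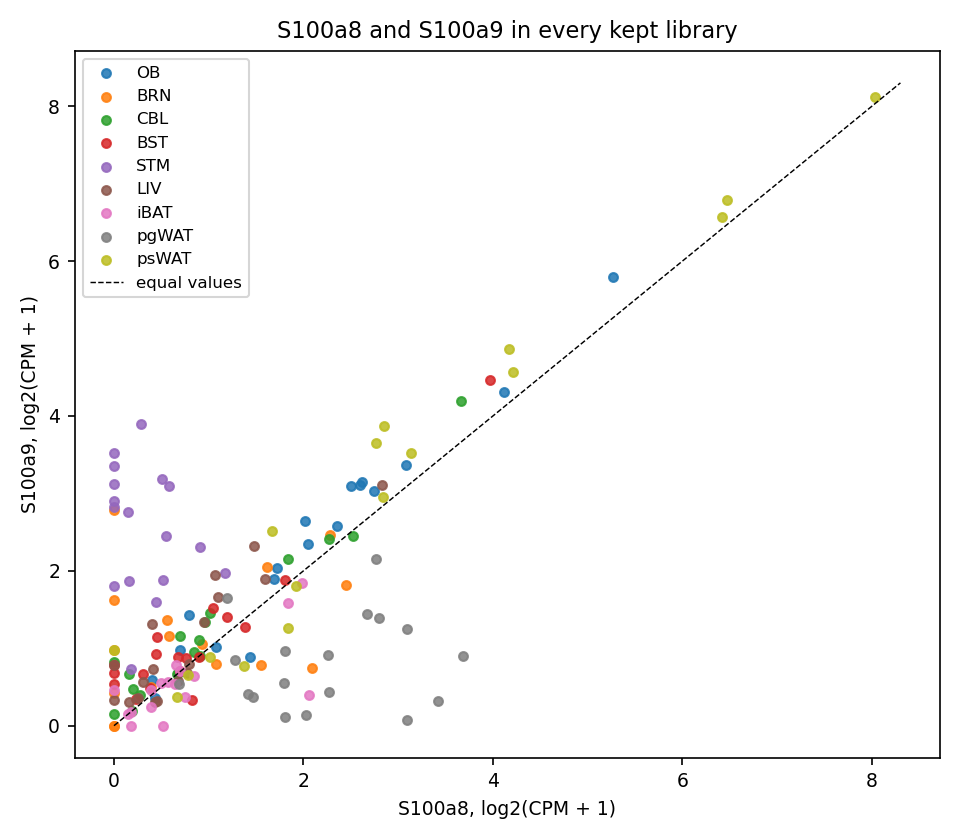
S100a8 against S100a9 as log2(CPM+1) in every library used, coloured by organ. The dashed line marks equal values, with STM above it and most pgWAT libraries below.

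Ngp, a granule protein gene of immature neutrophils, was near 0 in most libraries outside OB, CBL and psWAT. In BRN and BST its median was 0.246 CPM, with 3 counts or fewer in 11 of 16 and 12 of 18 libraries. Such low counts were also found in 7 of 18 CBL, 8 of 17 psWAT and 1 of 18 OB libraries. In psWAT Ngp ran from 0 over a median of 1.13 to 120.4 CPM and in OB from 0.141 over 1.89 to 30.8 CPM. Ngp had 0 counts in all 17 STM libraries, and 3 counts or fewer in 17 of 18 LIV, all 17 iBAT and 17 of 18 pgWAT libraries. Of its 8 steps 3 passed: psWAT over OB (1.30, SE 0.56, adjusted p = 0.0276; 81.3% of genes passed), OB over CBL (2.43, SE 0.61, adjusted p = 0.000391) and BST over LIV (2.03, adjusted p = 0.0253; 83.9% of genes passed). By CPM Ngp was higher in OB than in CBL in 18 of 18 animals, but higher in psWAT than in OB in only 7 of 17. The psWAT over OB call is lost with animal as a block (0.14, SE 0.98, adjusted p = 0.908), with DESeq2 and without replicate 1 or 3, and the BST over LIV call without replicate 2 (-0.03, adjusted p = 0.996), which holds animal 5.

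Camp, the cathelicidin gene, was highest in psWAT with 0, 1.71 and 51.2 CPM, then OB with 0, 0.805 and 14.4 CPM, with overlapping ranges. Only the step from psWAT to OB passed for Camp (1.66, SE 0.54, adjusted p = 0.00368), with psWAT higher in 8 of 17 animals, and it is lost without replicate 1 (0.73, adjusted p = 0.320). With animal as a block pgWAT over CBL passed as well for Camp (1.43, adjusted p = 0.0161; 1.16 and 0.0785 without the block). Mmp8, the neutrophil collagenase gene, had a median of 0 CPM and a highest value of 13.9 CPM in psWAT, a highest value of 2.41 CPM in OB, and 3 counts or fewer in all 18 pgWAT libraries. The same step passed for Mmp8 (1.66, SE 0.55, adjusted p = 0.00430), in 6 of 17 animals by CPM, and DESeq2 called 0 of its steps. This Mmp8 call is lost without replicate 1 (0.55, adjusted p = 0.489) and with animal as a block (0.69, adjusted p = 0.332), where OB over CBL passed (1.43, adjusted p = 0.0310). Retnlg had medians of 0.286 CPM in psWAT, 0.731 CPM in pgWAT and 0.537 CPM in OB, and 3 counts or fewer in all 17 STM libraries. None of the 8 Retnlg steps passed edgeR's test, 0 had an unadjusted p under 0.05, and DESeq2 called 0.

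Ltf, encoding lactoferrin, was highest in STM, at 1.07, 6.83 and 18.3 CPM in 17 libraries, a range that lies inside that of psWAT (0, 3.36 and 58.8 CPM). OB held Ltf at 0.169, 1.49 and 18.7 CPM, and pgWAT at 0, 0.139 and 108 CPM, the last in animal 17 alone. Of 8 Ltf steps 2 passed, psWAT over OB (2.01, SE 0.61, adjusted p = 0.00182) and pgWAT over BST (3.12, SE 0.68, adjusted p = 1.46e-05; 81.1% of genes passed), higher by CPM in 8 of 17 and 9 of 18 animals. Without the libraries that stand apart, animal 17 among them, the pgWAT over BST difference was -0.02 (adjusted p = 0.977), without replicate 2 likewise -0.02 (adjusted p = 0.992), and with animal as a block 1.19 (adjusted p = 0.109). In that setting without them OB exceeded pgWAT for Ltf (2.01, adjusted p = 0.000919), and the psWAT over OB call is lost without replicate 3 (1.39, adjusted p = 0.0919).

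Lcn2, encoding the siderophore-binding protein lipocalin 2, was highest in pgWAT, at 4.64, 27.6 and 1823 CPM, and next in LIV, at 1.44, 3.90 and 190.9 CPM. Lower were psWAT (0.143, 1.49 and 75.6 CPM) and OB (0.113, 1.16 and 18.2 CPM), and iBAT stayed at or under 0.825 CPM. For Lcn2 3 steps passed: pgWAT over LIV (2.01, SE 0.62, adjusted p = 0.00238), LIV over psWAT (1.90, adjusted p = 0.00537; 79.5% of genes passed) and psWAT over OB (2.00, adjusted p = 0.00454). The pgWAT value exceeded the LIV value of the same animal in 14 of 18 animals. The first and last of these calls are lost without replicate 3 (0.72 and 1.34, adjusted p = 0.383 and 0.128) and the LIV over psWAT call without replicate 2 (1.02, adjusted p = 0.170). With animal as a block OB over CBL passed too for Lcn2 (1.41, adjusted p = 0.0428). Per kilobase Lcn2 led the 10 genes by median in pgWAT (10.5 CPM per kb, S100a8 4.92) and LIV (1.49, S100a9 1.34).

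The 2 receptor genes had their highest levels in psWAT. Cxcr2, the receptor for CXCL1 and CXCL2, lay there at 0, 8.83 and 29.3 CPM and in STM at 0, 1.17 and 2.19 CPM, with most other libraries at 3 counts or fewer. Of 8 Cxcr2 steps 3 passed: psWAT over STM (2.63, SE 0.49, adjusted p = 5.60e-07, 13 of 16 animals), STM over iBAT (2.23, adjusted p = 0.000332; 72.7% of genes passed; 13 of 16 animals) and LIV over OB (1.47, adjusted p = 0.0236; 83.2% of genes passed; 6 of 18 animals). The last is lost with animal as a block (0.83, adjusted p = 0.209), with DESeq2 (adjusted p = 0.0790), without replicate 1 (1.28, adjusted p = 0.110) and without replicate 2 (1.09, adjusted p = 0.248), which holds animal 5 with 30 counts of Cxcr2 in LIV. Csf3r, the receptor for granulocyte colony-stimulating factor, was found at 1.19, 10.2 and 57.4 CPM in psWAT, 3.22, 4.93 and 6.35 CPM in OB and 0, 5.17 and 10.0 CPM in BRN. Csf3r thus had overlapping ranges in OB, BRN, BST (2.08, 3.55 and 5.30 CPM) and pgWAT (0.737, 3.83 and 7.42 CPM).

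For Csf3r 4 of 8 steps passed. It was higher in psWAT than in OB (1.48, SE 0.27, adjusted p = 4.17e-07, 12 of 17 animals), in LIV than in CBL (2.19, adjusted p = 1.10e-11; 83.2% of genes passed; 17 of 18 animals) and in iBAT than in STM (1.21, adjusted p = 0.000668, 12 of 16 animals). The fit puts LIV above pgWAT for Csf3r (0.75, adjusted p = 0.0102), opposite to the order by mean log2(CPM+1), which is not scaled by TMM. Both this call and iBAT over STM are lost without replicate 2 (adjusted p = 0.0703 and 0.0884). With animal as a block BRN over BST also passed for Csf3r (0.58, adjusted p = 0.0363).

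Other genes known from neutrophils were read as lists, summed over their genes in each library. Whether the counts of these lists come from neutrophils or from other cells of an organ was not tested. Their sums are therefore not levels of neutrophils. The 9 other granule protein genes had mean sums of 29.3 CPM in psWAT (Prtn3 8.65), 38.95 CPM in pgWAT (Prtn3 22.5) and 6.83 CPM in OB, against 3.16 CPM in iBAT, 3.24 CPM in CBL, 3.46 CPM in LIV, 5.06 CPM in BRN, 6.70 CPM in BST and 10.3 CPM in STM. The gene Mpo, for myeloperoxidase, had 3 counts or fewer in every pgWAT library although the Prtn3 level there was the highest of all organs. Prtn3 lies 3073 bases from Elane, and Elane 2638 bases from Cfd, the adipsin gene, which averaged 13460 CPM in pgWAT (Cfd was added after these values were seen). The 14 surface receptor and activation genes summed to 469 CPM in psWAT (Selplg 212), 139.5 CPM in STM (Mxd1 86.2) and 121.2 CPM in pgWAT (Itgam 37.3). Ly6g had 3 counts or fewer in every library of BRN, BST, STM, LIV, iBAT and pgWAT.

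The 5 stefin genes of neutrophils had 3 counts or fewer in all libraries of 7 organs and reached mean sums of 1.201 CPM in STM and 0.507 CPM in psWAT. NADPH oxidase genes summed to 1022 CPM in psWAT (Rac2 491), 152.9 CPM in pgWAT (Cyba 48.9) and 11.3 to 39.1 CPM elsewhere. Of the granulocyte transcription factors Cebpa led in every organ, with 654 CPM in pgWAT, and Gfi1 had 3 counts or fewer in all libraries of BRN, CBL, BST, LIV and iBAT. Among ligands that attract neutrophils Cxcl12 led in every organ, with 307 CPM in LIV and 228 CPM in psWAT, and Il17a had 3 counts or fewer in every library of all 9.

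In psWAT, where 8 of the 10 members had their highest mean log2(CPM+1), lymphocyte genes were also at their highest. The B cell genes there summed to 261, 3671 and 5751 CPM as lowest, median and highest (Ighm mean 1452), and T cell genes to a mean of 789 CPM (Lck 296) against 7.87 CPM or less elsewhere. Cycling and erythroblast genes had a mean sum of 136.3 CPM in psWAT (Mki67 87.8) and 80.5 CPM in STM, and monocyte genes 194 CPM in psWAT and 154.7 CPM in pgWAT. Macrophage genes were highest in pgWAT (mean 811 CPM, C1qb 219) before psWAT (427 CPM), and platelet genes likewise (66.4 CPM, Pf4 58.03, before 27.9 CPM). Red blood cell genes had mean sums of 667 CPM in pgWAT (Hbb-bs 348), 479.6 CPM in LIV, 269 CPM in iBAT, 228.3 CPM in BRN, 168.3 CPM in psWAT, 108.6 CPM in CBL, 100.3 CPM in BST, 98.8 CPM in OB and 52.3 CPM in STM.

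The same animal was then followed from organ to organ. Animal 5 (2 h, replicate 2) had the highest Lcn2 of its organ in LIV (190.9 CPM), OB (18.2), BST (18.99), CBL (16.7), BRN (13.7) and iBAT (0.825). It also had the highest S100a8 in CBL (11.7), BST (14.7) and LIV (6.10), and was among the 3 highest in 6 of 9 organs. Its S100a9 was the highest in CBL, BST, LIV, iBAT and pgWAT, 5 organs in all. The red blood cell genes in this animal summed to 127.8 CPM in OB, above all 0 h libraries, 96.2 in CBL, 122.2 in BST and 230.2 in LIV. Their sum was 102.2 CPM in BRN, within the range of the 0 h libraries, and 93.8 CPM in iBAT, below all 0 h libraries. None of these sums was the highest of its organ.

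Animal 6 (2 h, replicate 3) held Lcn2 at 6.12 CPM in OB, 5.84 in BRN, 6.67 in CBL, 4.81 in BST and 49.98 in LIV. Animal 3 (0 h, replicate 3) was among the 3 highest for Ngp in 6 organs and for S100a8 in 5, with S100a8 at 87.7 CPM in psWAT, 3.81 in CBL, 3.27 in BRN and 7.48 in OB. Animal 11 (12 h, replicate 2) had the highest S100a8 of OB (37.4 CPM, with Ngp 30.8 and Mpo 5.01), but 0.362 CPM in BST and 2.18 CPM in psWAT. Its S100a8 was also the highest of BRN (4.44 CPM), but on 14 counts in a library of 3152641, with 1 count of Ngp. Animal 5 had S100a8 at 3.86 CPM in BRN on 41 counts. The red blood cell genes of animal 11 summed to 520.5 CPM in BRN, the highest there, and to 149.4 CPM in OB. In OB animal 13 was highest with 244 CPM, and the part of red blood cell genes in the S100a8 and Ngp values was not tested. Animal 13 (18 h, replicate 1) had the highest psWAT values of S100a8 (260.4 CPM), S100a9 (276 CPM) and Ngp (120.4 CPM), with Mpo at 32.8 and Elane at 15.0 CPM, while its S100a8 was 2.22 CPM in OB, 1.29 in BST and 1.78 in LIV. After animal 3 the next psWAT value of S100a8 was 84.6 CPM in animal 6, which had 1.60 CPM in BST.

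**Figure D3:**
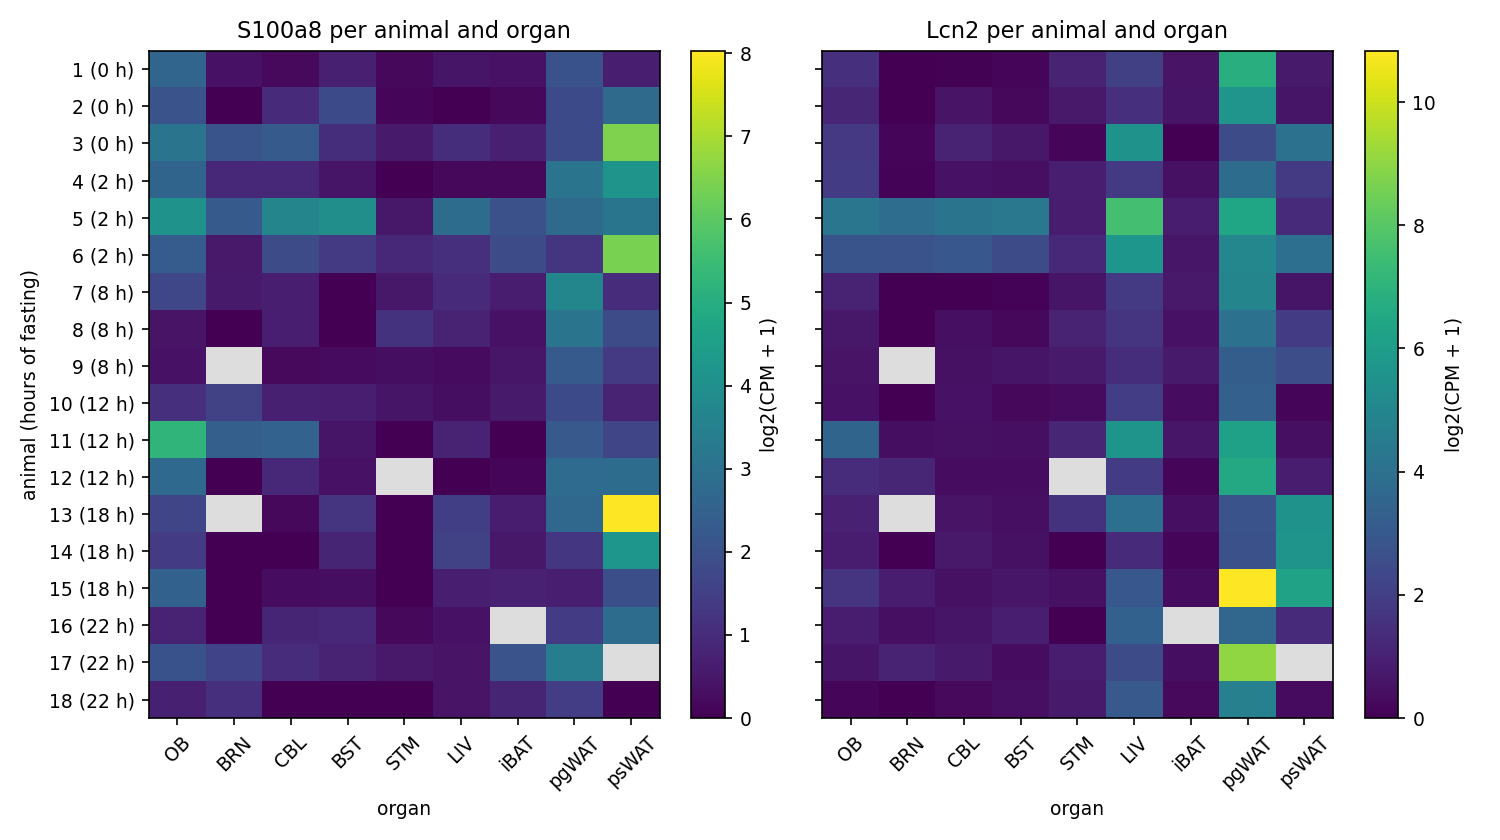
S100a8 (left) and Lcn2 (right) as log2(CPM+1) for each of the 18 animals in each of the 9 organs. Grey marks a library left out.

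The share of Ngp in the summed counts of Ngp and S100a8 compares a gene of maturing cells with one kept in mature cells, if both come from neutrophils. In libraries with 10 counts or more of the 2 genes its lowest, median and highest were 24.1, 41.7 and 64.7% in OB (17 libraries), 0, 27.05 and 50% in psWAT (12), 6.67, 21.4 and 38.3% in BRN (7), 25.9, 31.1 and 60% in CBL (8) and 0, 30.0 and 40% in BST (7). LIV had 0, 15.8 and 50% (5 libraries), iBAT 0, 1.92 and 15.8% (4), pgWAT 0, 0 and 20.8% (16) and STM 0% in both of 2. In single libraries the Ngp share was 45.1% in OB of animal 11 (95% Wilson interval 42.1 to 48.2, 1020 counts) and 39.9% in OB of animal 5 (34.4 to 45.6, 286 counts). In animal 5 it was also 35.9% in BST (30.3 to 41.9, 259 counts), 41.9% in psWAT (33.3 to 50.9), 28.4% in CBL (21.6 to 36.3) and 26.8% in BRN (16.96 to 39.6), but only 1.30% in LIV (0.230 to 7.00, 77 counts), 3.85% in iBAT (0.682 to 18.9, 26 counts) and 0% in pgWAT (0 to 6.64, 54 counts). Other shares were psWAT of animal 13 31.6% (30.1 to 33.2, 3577 counts) and psWAT of animal 3 28.2% (25.4 to 31.2, 928 counts). The ranges of OB and psWAT overlap, psWAT of animal 16 having 50% (38.6 to 61.4) and OB of animal 13 24.1%. Which cells hold the S100a8 of an organ was not tested. In pgWAT the median share of S100a9 in the counts of S100a8 and S100a9 was only 15.8%. The Ngp shares of pgWAT are therefore not read as cell maturity.

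Between organs of the same animal 49 relations were tested by permutation, 21 for S100a8 and 28 for Lcn2, with BH over all 49. Ngp gave none, because only OB had 3 counts or more in at least 12 animals. For S100a8 2 relations passed: OB with CBL (r = 0.742, p = 0.00091, BH 0.00892, rho = 0.679 with p = 0.00272 and BH 0.0949) and CBL with BST (r = 0.685, p = 0.00762, BH 0.0467, rho = 0.460 with p = 0.0561). Without the 2 animals farthest out on the x axis, r was 0.5003 (BH 0.225) and 0.432, and as deviations from the mean of the sequencing lane 0.678 and 0.685. All CBL libraries ran on lane 3 and all BST libraries on lane 4. For CBL with BST the lane setting therefore removes only a constant and cannot change r, so lane was not tested there. Without animals 5 and 6, a setting added after the values were seen, OB with CBL had r = 0.717 and CBL with BST r = 0.185, neither passing. S100a8 in BST with psWAT did not pass (r = 0.350, p = 0.167, BH 0.405, rho = 0.651 with p = 0.00581 and BH 0.0949), yet it was the only S100a8 relation passing without the 2 farthest animals (r = 0.787, p = 0.00049, BH 0.024). Within lanes it was -0.00565, as deviation from the time mean 0.0403, and without animals 5 and 6 0.558. By rho 0 of the 49 passed after BH.

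For Lcn2 6 relations passed. The closest was CBL with BST (r = 0.976, p = 8e-05, BH 0.00392, rho = 0.643 with p = 0.00486, BH 0.0949). Without the 2 farthest animals its r was 0.568. The value within lanes is 0.976 by construction, since each of these organs ran on 1 lane, so lane was not tested for this pair. Lcn2 in OB went with LIV (r = 0.804, p = 0.0002, BH 0.0049, rho = 0.515 with p = 0.0311; 0.556 without the 2 farthest, 0.806 within lanes). BST with LIV had r = 0.764 (p = 0.00034, BH 0.00555, rho = 0.501 with p = 0.0358; 0.446 and 0.722 in these settings) and CBL with LIV r = 0.760 (p = 0.00056, BH 0.00686, rho = 0.393; 0.381 and 0.710). OB with BST had r = 0.733 (p = 0.00507, BH 0.0414, rho = 0.389; 0.661 and 0.670) and OB with CBL r = 0.717 (p = 0.00697, BH 0.0467, rho = 0.259; 0.645 and 0.638). Without the 2 farthest animals 0 of the Lcn2 relations passed, and without animals 5 and 6 also 0. Both settings use fewer animals. For OB with BST and OB with CBL, r was 0.661 and 0.645 without the 2 farthest, but 0.111 and 0.0544 without animals 5 and 6. In the latter setting r was 0.589 for OB with LIV and 0.568 for CBL with BST. It was 0.446 for BST with LIV and 0.381 for CBL with LIV. The relations thus differ in how far r holds without animals 5 and 6.

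Against haemoglobin within an organ 16 relations were tested with Hbb-bs, 7 for S100a8, 1 for Ngp and 8 for Lcn2. Only Lcn2 in iBAT passed, with a negative sign (r = -0.710, p = 0.0015, BH 0.024, rho = -0.676 with p = 0.00338 and BH 0.0541). Without the 2 farthest animals it was -0.618 (BH 0.0906) and within lanes -0.643. S100a8 in OB had r = 0.484 with Hbb-bs (p = 0.0409, BH 0.186, rho = 0.494; 0.581 without the 2 farthest animals, 0.502 within lanes). Lcn2 in OB had r = 0.470 (p = 0.0490, BH 0.186, rho = 0.606 with p = 0.00891 and BH 0.0713; 0.624 with BH 0.0906 without the 2 farthest, 0.518 within lanes). Both were lower as deviations from the time mean, at 0.355 for S100a8 and 0.347 for Lcn2. They were 0.453 and 0.456 without animals 5 and 6. Ngp, tested in OB alone, had r = 0.332 (p = 0.179), and none of the 16 relations passed with a positive sign.

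With fasting, few members kept by the filter on low counts passed edgeR's test. In the joint test of 6 times in iBAT, Csf3r passed (adjusted p = 0.0337 by edgeR's quasi-likelihood test with BH), 1 of the 2 members kept by the filter, where 29% of genes passed. Csf3r in iBAT lay at 0.431, 1.12 and 1.36 CPM at 0 h, 0.648, 4.95 and 3.29 CPM at 2 h, and 0 and 0.113 CPM at 22 h. The 22 h values lie below all 0 h values, and those of 2 h overlap with 0 h. At 22 h against 0 h the fitted log2 fold change was -3.50 (SE 1.28, adjusted p = 0.0367; 29.7% of genes passed), resting on 1 count in 2 libraries against 37 counts in 3, a ratio of pooled CPM of 0.0923 (95% exact interval 0.00228 to 0.547). The 22 h library of animal 17 holds only 3156101 counts and lies farthest of all libraries from its organ mean, and the call is lost without replicate 2 (-2.91, SE 1.54, adjusted p = 0.226) or without replicate 3 (-6.41, SE 4.17, adjusted p = 0.228). In a setting added after the values were seen, leaving out only this library in iBAT, Csf3r passed neither jointly (adjusted p = 0.1085) nor at 22 h (-3.08, SE 1.44, adjusted p = 0.132). Each of these 3 settings leaves 1 library at 22 h, which the fit assumes to vary like the other groups. The fold change is negative in each, but with both 22 h values below all 0 h values its sign could not change. Since the 22 h libraries share no lane with those of 0 h, lane and fasting cannot be told apart for Csf3r here.

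Ltf in STM was lower at 18 h than at 0 h. Its values were 12.7, 7.19 and 5.82 CPM at 0 h, 6.82, 18.3 and 6.83 CPM at 2 h, 8.303, 8.56 and 8.52 CPM at 8 h, 1.07 and 3.71 CPM at 12 h, 3.06, 1.10 and 2.84 CPM at 18 h, and 9.65, 7.21 and 2.04 CPM at 22 h. Every Ltf value of 12 and 18 h lies below every 0 h value, whereas 2 and 22 h overlap with 0 h. In the same libraries the stomach markers summed to 11511, 38460 and 11850 CPM at 18 h against 49923, 34881 and 85277 CPM at 0 h, and squamous genes to 4559, 4808 and 4614 against 1506, 5063 and 1466 CPM, mostly lower and mostly higher but overlapping. The 18 h fold change of Ltf passed (log2 -2.06, SE 0.61, adjusted p = 0.0337 by edgeR's quasi-likelihood test with BH; 8.72% of genes passed), while its joint test did not (adjusted p = 0.0882). It is lost when any 1 of the 3 replicates is left out, without the filter on low counts (-2.05, adjusted p = 0.0542) and with lane as a covariate (-1.94, SE 1.03, adjusted p = 0.619). All 0 h libraries of STM ran on lane 5 and all 18 h libraries on lane 6, so the lane covariate rests on the 8 h libraries alone, where Ltf was 8.303 and 8.56 CPM on lane 5 and 8.52 CPM on lane 6. The 22 h libraries, all on lane 6, overlap with 0 h in Ltf.

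**Figure D4:**
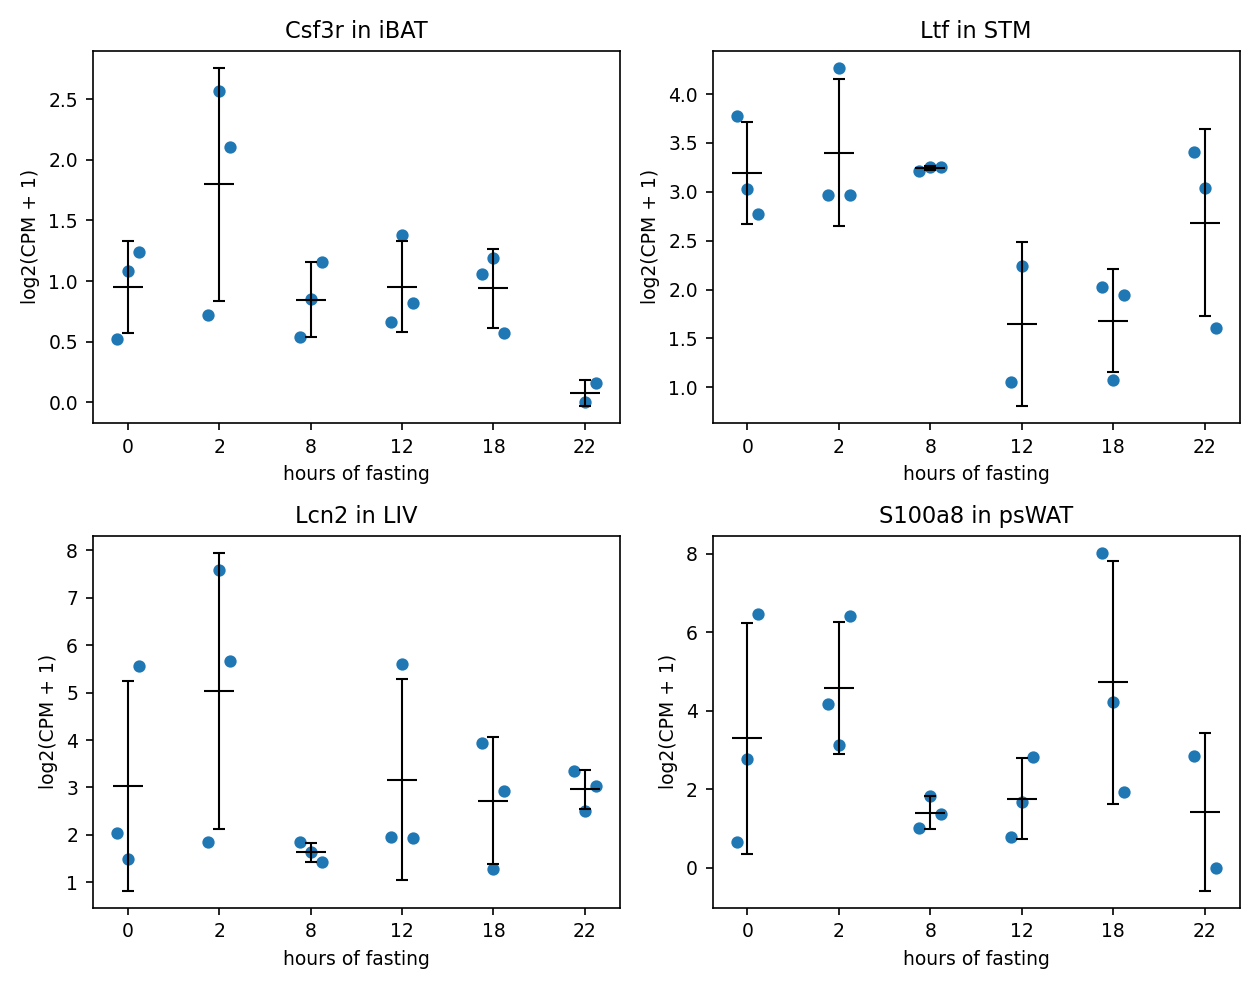
Csf3r in iBAT, Ltf in STM, Lcn2 in LIV and S100a8 in psWAT at each fasting time. Points are libraries, and lines give the mean with the standard deviation.

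In all organs but iBAT edgeR's joint test passed 0 members kept by the filter. Without the filter it called 8 of 10 members in OB (14.2% of genes), 5 of 10 in BST (2.45%) and 5 of 10 in LIV (15.8%). It then also called 3 of 10 in CBL (8.09%), 3 of 10 in iBAT (16.3%) and 1 of 10 in BRN (7.00%), and 0 in STM, pgWAT and psWAT. The values that follow are with the filter. In OB 0 of 8 members kept passed (15.3% of all genes), 3 had an unadjusted p under 0.05 (32.4% of genes) and DESeq2 called 4, namely Lcn2, Ltf, Ngp and S100a8 (22.5% of genes). In LIV it was 0 of 4 (16.0% of genes), with 3 unadjusted (35.2%) and 3 by DESeq2 (25.6%): Csf3r, Lcn2 and S100a8. STM had 0 of 4 members (6.55% of genes), with 1 unadjusted (23.7%) and 1 by DESeq2 (17.2%), Ltf. The lowest adjusted p in these organs were 0.0548 for Lcn2 in OB, 0.0615 for Csf3r in LIV and 0.0882 for Ltf in STM, all by edgeR's quasi-likelihood test with BH. S100a8, the other member kept in iBAT, had 0.0608 there, and both had an unadjusted p under 0.05 (41.6% of genes) and were called by DESeq2 (40.5%).

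BRN had 0 of 3 members passing (0.00597% of genes), 0 unadjusted (16.6%) and 0 by DESeq2 (9.42%), and CBL 0 of 4 (2.99%), 1 unadjusted (23.8%) and 0 by DESeq2 (11.1%). BST had 0 of 3 (0.107%) and 3 unadjusted (11.1%), with S100a8 and S100a9 called by DESeq2 (1.26%). In pgWAT it was 0 of 7 (0% of genes) and 1 unadjusted (10.3%), with Ltf by DESeq2 (3.39%), and in psWAT 0 of 10 (0% of genes) and 5 unadjusted (19.1%), with Camp, S100a8 and S100a9 by DESeq2 (12.3%). In pgWAT and psWAT edgeR's joint test thus called no gene of any kind, members included.

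Against 0 h at any single time, edgeR called 1 member in STM (Ltf; 8.75% of genes), 1 in iBAT (Csf3r; 29.8%) and 0 in OB (0.544%), BRN (5.93%), CBL (0.676%), BST (0%), LIV (4.16%), pgWAT (0.00609%) and psWAT (0%). In those 7 organs 3, 1, 0, 2, 2, 2 and 6 members had an unadjusted p under 0.05 at some time (44.7%, 42.3%, 39.6%, 26.8%, 50.9%, 33.7% and 31.4% of genes). DESeq2 called 0 members in them (0.430%, 12.7%, 0.883%, 0%, 5.54% and 2.83% of genes) except 1 in pgWAT (5.25%), and it called 1 in STM (12.3%) and 2 in iBAT (31.9%). At most other single times few genes of any kind passed: in LIV 0.0570% at 2 h, 0.128% at 8 h, 1.96% at 12 h, 2.17% at 18 h and 0.849% at 22 h, with 0 members each time. In iBAT it was 0.227% at 2 h, 0.344% at 8 h, 0.227% at 12 h and 0.268% at 18 h, and in BRN 3.42% at 12 h, 1.91% at 18 h and 3.68% at 22 h, again with 0 members. OB had 0.00597% at 8 h, 0.532% at 18 h and 0.0358% at 22 h, CBL 0.00626% at 18 h and 0.676% at 22 h, STM 0.233% and pgWAT 0.00609% at 22 h, and all remaining times 0%. Without the filter edgeR called, at any time against 0 h, 7 of 10 members in OB (1.06% of genes) and 4 of 10 in LIV (4.47%). It then called 1 of 10 in BRN (7.23%) and in BST (0.118%), and 0 of 9 in STM (5.05%).

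Some members did not overlap with 0 h without passing the test. OB S100a8 was 5.14, 3.13 and 7.48 CPM at 0 h, 2.29, 0.353 and 0.317 CPM at 8 h, and 0.729, 3.04 and 0.621 CPM at 22 h, so both later groups lie below the fed one. S100a9 and Lcn2 also lay below 0 h in OB at 8 h (8.44% of genes did), and Ltf, Lcn2 and Csf3r at 22 h (7.31%). At 2 h Lcn2 and Retnlg lay above 0 h in OB (3.77% of genes). All OB libraries of 0 h ran on lane 3 and all of 12 to 22 h on lane 4, and LIV was split in the same way between lanes 1 and 2.

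In pgWAT S100a8 was 11.9, 7.54 and 3.81 CPM at 8 h and 3.06, 2.50 and 2.50 CPM at 0 h, higher in all 3 libraries (12.3% of genes). Camp at 18 h and Csf3r at 22 h lay below 0 h there (15.8% and 16.5% of genes). In BRN S100a9 lay above 0 h at 2, 8 and 12 h (6.89%, 16.3% and 12.0% of genes) and Csf3r below it at 18 h (31.2%), with 2 libraries at 8 and at 18 h. CBL Ngp lay below 0 h at 8 h (6.59%), BST S100a8 at 8 and 12 h (7.16% and 7.5%) and BST Csf3r at 22 h (5.49%). In STM Ltf lay below at 12 and 18 h (11.2% and 10.9% of genes), and in iBAT at 22 h S100a8 lay above (29.8%) and Csf3r below (27.9%) 0 h.

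In psWAT at 18 h Ltf was 58.8, 38.97 and 54.7 CPM and Lcn2 44.4, 47.1 and 75.6 CPM, above the 0 h values of 0.145, 0.689 and 29.9 CPM for Ltf and 0.727, 0.551 and 16.2 CPM for Lcn2 (5.21% of genes lay above). S100a8 in the same 18 h libraries was 260.4, 17.5 and 2.79 CPM, overlapping with 0 h (0.581, 5.79 and 87.7 CPM). The libraries of animals 14 and 15 held 35.3 and 46.6 CPM of squamous epithelium genes, a list with a median of 0.510 CPM in psWAT, and 66.1 and 105.5 CPM of the milk protein gene Csn3, added after the values were seen. In psWAT of animal 8, with 44.5 CPM of squamous genes, Ltf was 0.466 CPM, and in that of animal 9, with 16.5 CPM of Csn3, it was 8.86 CPM. What squamous or glandular cells contribute was not tested.

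In pgWAT the highest Lcn2 values, 1823 CPM in animal 15 and 517 CPM in animal 17, come from the 2 libraries with the most epididymal RNA, 17388 and 24058 CPM of Crisp1, Lcn8, Lcn5, Defb41 and Adam28 (a list added after the values were seen). Ltf in pgWAT was 108 CPM in animal 17, 5.59 CPM in animal 5 with 2896 CPM of the epididymal genes, and 2.65 CPM in animal 18 with 599 CPM. Animal 15 had Ltf at 0.907 CPM, and the other 14 pgWAT libraries held 33.8 CPM or less of these genes and Ltf at 0.575 CPM or less. The epididymal genes were not used in a test.

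Among the other lists the joint test over fasting times called 17 of 56 genes kept in iBAT, 12 of 57 in OB, 11 of 64 in LIV and 7 of 70 in STM (30.4%, 21.1%, 17.2% and 10.0%, against 29%, 15.3%, 16.0% and 6.55% of all genes). In OB 4 of 6 red blood cell genes kept passed: Hbb-bt (adjusted p = 0.000436), Hba-a2 (0.00798), Hbb-bs (0.0132) and Hba-a1 (0.0460), all by edgeR's quasi-likelihood test with BH. Hbb-bs in OB was 32.8, 57.4 and 54.6 CPM at 0 h, 130.6, 87.0 and 61.9 CPM at 18 h, and 34.9, 27.6 and 28.3 CPM at 22 h. It was higher in all 18 h libraries than in all 0 h libraries, and S100a8 in OB at 18 h, at 2.22, 1.70 and 4.68 CPM, overlapped with 0 h. At 8 and 22 h, where S100a8 in OB lay below 0 h, the red blood cell genes summed to 68.2, 42.7 and 55.7 CPM and to 65.3, 53.1 and 57.05 CPM, mostly low but overlapping with the 60.8, 95.1 and 96.6 CPM of 0 h. OB also had C1qb, C1qa and Mrc1 (3 of 6 macrophage genes), Cyba (1 of 6 oxidase genes), Cxcl12 (1 of 2 ligand genes), Cp (1 of 4 acute-phase genes) and, of organ markers, Doc2g and Ttr.

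In LIV both ligand genes kept, Cxcl12 (adjusted p = 0.00228) and Cxcl1 (0.0323), passed edgeR's quasi-likelihood joint test with BH. Cxcl1, which signals through Cxcr2, was 14.6, 5.58 and 10.6 CPM at 0 h and 7.26, 81.5 and 76.003 CPM at 2 h, high in animals 5 and 6, while the highest value at any other time was 30.6 CPM in animal 14. Cxcl12 was 341, 366 and 488 CPM at 0 h, 289, 239 and 261 CPM at 2 h and 254, 293 and 221 CPM at 12 h, lower in all libraries of both times. The ligand genes together summed to 355, 372 and 500 CPM at 0 h and to 387, 418 and 406 CPM at 8 h, overlapping. Their sums were 308, 257 and 298 CPM at 18 h and 286, 266 and 283 CPM at 22 h, below 0 h. Single genes of 6 further lists passed in LIV: Hdc (1 of 8 surface and activation genes), Steap4 (1 of 9 acute-phase genes), Cd79b (1 of 5 B cell genes), Plac8 (1 of 3 monocyte genes), Mrc1 (1 of 6 macrophage genes) and Itga2b (1 of 2 platelet genes). Of organ markers Cox8b, Cox7a1 and Doc2g passed there.

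In iBAT Prtn3 passed (adjusted p = 0.0196, edgeR's quasi-likelihood joint test with BH), 1 of 2 granule genes kept. Prtn3 was 0.246, 0.462 and 0.418 CPM at 0 h and 1.84, 2.16 and 2.18 CPM at 12 h, higher in all libraries. So was its near neighbour Cfd, with 861, 1082 and 1579 CPM at 0 h and 2343, 1898 and 2649 CPM at 12 h. At 22 h Cfd was 6269 and 3789 CPM, while the granule genes, Prtn3 among them, summed to 1.27 and 3.62 CPM. These granule genes summed to 4.07, 4.14 and 7.73 CPM at 12 h. The part of Cfd in the Prtn3 counts was not tested. Also passing in iBAT were Hp, Steap4 and Orm1 (3 of 5 acute-phase genes), Hdc (1 of 6 surface and activation genes), Cyba (1 of 5 oxidase genes), Cxcl12 (1 of 1 ligand), Cebpa (1 of 2 transcription factors), C1qa (1 of 6 macrophage genes), Lck (1 of 3 T cell genes) and Hba-a2 and Hba-a1 (2 of 5 red blood cell genes). Of organ markers Cox8b, Cox7a1, Cidea, Adipoq and Cidec passed there. STM had Top2a (1 of 2 cycling genes), Itga2b and Gp1bb (2 of 3 platelet genes), and the markers Hoxa5, Hoxb5, Doc2g and Lep. No gene of any list passed in BRN, CBL, BST, pgWAT or psWAT, and none of the squamous epithelium genes in any organ.

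Members were also set against the other summed lists within each organ, a comparison added after the values were seen and made for all 906 pairs in which both sides reached 3 counts in 12 animals. By r 91 passed (permutation, BH over all 906), 83 positive and 8 negative, and by rho 53. They lay in psWAT (32, or 24.1% of its pairs), OB (26, 15.5%), LIV (16, 20%), pgWAT (6, 4.76%), BST (4, 4.55%), STM (3, 2.61%), BRN (2, 5%) and iBAT (2, 2.5%), with 0 in CBL. Without the 2 animals farthest out on the x axis 18 passed, and in every setting tried 15, which are named here. By list the highest shares were 7 of 8 members for granule genes and 6 of 8 for erythroblast and cycling genes in OB, 4 of 4 for granule and for acute-phase genes and 3 of 4 for monocyte genes in LIV, and 7 of 7 for macrophage and 5 of 7 for monocyte genes in psWAT.

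In OB the granule genes outside the 10 went with S100a8 (r = 0.928, p = 1e-05, the smallest possible, BH 0.000906, rho = 0.833; 0.849 without the 2 farthest, 0.936 within lanes), S100a9 (r = 0.904, same p and BH, rho = 0.835; 0.814 and 0.909) and Ngp (r = 0.913, same p and BH, rho = 0.816; 0.768 and 0.918). In STM, where squamous epithelium genes summed to 575, 3547 and 6587 CPM (Krt4 mean 1092), Cxcr2 went with them (r = 0.878, p = 1e-05, BH 0.000906, rho = 0.853; 0.781 and 0.868). S100a9 in STM passed with the same list (r = 0.652, p = 0.00448, BH 0.0456, rho = 0.725), but neither without the 2 farthest (0.704, BH 0.0712) nor within lanes (0.597, BH 0.0816). Ltf (r = -0.395, p = 0.117) and Lcn2 (r = 0.262, p = 0.309) did not pass there.

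In psWAT 9 of the 15 lie, all of Cxcr2 or Csf3r. Cxcr2 and Csf3r went with the monocyte genes (r = 0.919 and 0.891), surface and activation genes (0.903 and 0.896), oxidase genes (0.886 and 0.838) and B cell genes (0.884 and 0.825), and Cxcr2 also with the ligand genes (0.839). For these 9 p was at most 4e-05 and BH at most 0.00201, with rho of 0.828 to 0.907, r of 0.814 to 0.901 without the 2 farthest and 0.750 to 0.888 within lanes. S100a8 in psWAT did not pass with the B cell genes (r = 0.536, p = 0.0253, BH 0.122, rho = 0.696).

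In LIV the acute-phase genes summed to 4814, 6282 and 17538 CPM (Hp mean 5529), with 17538 CPM in animal 5, 12607 in animal 6 and 12326 in animal 11. Lcn2 went with this sum (r = 0.917, p = 3e-05, BH 0.00170, rho = 0.717; 0.822 without the 2 farthest, 0.922 within lanes). S100a8 (r = 0.754, p = 0.00089, BH 0.0179, rho = 0.659), S100a9 (r = 0.726, p = 0.00146, BH 0.0239, rho = 0.639) and Csf3r (r = 0.717, p = 0.00148, BH 0.0239, rho = 0.521) passed as well, but not without the 2 farthest animals (0.515, 0.498 and 0.291). The granule and monocyte pairs passing in LIV also did not pass without the 2 farthest (BH 0.0712 or more). LIV Lcn2 was 190.9 CPM in animal 5, 49.98 in animal 6, 47.7 in animal 11 and 46.5 in animal 3, and the 4 are also the animals with the highest acute-phase sums, animal 3 having 8547 CPM. In pgWAT Lcn2 went with the brainstem markers Slc6a5, Hoxb5, Hoxa5 and Tph2 (r = 0.847, p = 1e-05, BH 0.000906, rho = 0.794; 0.752 without the 2 farthest, 0.851 within lanes). The highest sums of these brainstem markers in pgWAT were in animals 15 and 17 (48.36 and 35.95 CPM). These are also the libraries with the most epididymal RNA and the highest Lcn2. The part of epididymal RNA in this relation was not tested. Without animals 5 and 6, 52 of the 906 passed in place of 91.

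Genes like S100a8 were sought among 17037 genes, as deviations from the organ mean over all libraries used. Of members S100a9 had r = 0.848, Ltf 0.562, Csf3r 0.542 and Lcn2 0.493. The 8 closest other genes were B430306N03Rik (0.538), I830077J02Rik (0.518), Cd300lf (0.509), Ighg2c (0.507), Cd5l (0.507), Ccl8 (0.497), Igsf6 (0.492) and Nubp1 (0.487), which include myeloid receptor and immunoglobulin genes. Within single organs, a view added afterwards, the closest to S100a8 were Chil3 (0.936) and Cd177 (0.912) in OB, Padi4 (0.941), Slfn4 (0.938), Chil3 (0.931) and Fpr2 (0.929) in psWAT, and Tifa and Itih4 (both 0.836) in LIV, with Cxcl1 at 0.805. In pgWAT they were Ctnnal1 (0.869), Snx6 (0.857) and Pdk3 (0.852), in CBL Ptgs2 (0.821), in STM Ero1lb (0.819), in BRN C5ar1 (0.8099), in iBAT Parvg (0.783) and in BST Irx2 (0.745), and none of the 8 closest in these 6 organs belongs to the neutrophil lists. These r are descriptions without a test.

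All 10 members have a promoter window of 250 bases before the transcription start (GRCm38.p6, RefSeq). The letters TTGCNNAA, resembling a site of C/EBP factors, occur on either strand in 6 of 10 windows (S100a9, Ngp, Ltf, Lcn2, Retnlg and Mmp8) against 9.56% of 32851 windows. GAGGAAG, resembling a PU.1 site, occurs in 4 (S100a8, Lcn2, Mmp8 and Csf3r) against 10.6%, and GGGNNNTCC, resembling an NF-kB site, in 3 (S100a8, Lcn2 and Cxcr2) against 15.2%. The 3 motifs were chosen after the windows were seen, and a match is a description. Shown, with TTGCNNAA or its reverse complement in capitals, are the windows of S100a9 (chr3:90695722-90695971, minus strand), Ngp (chr9:110419558-110419746, plus strand), Ltf (chr9:111019042-111019270, plus strand) and Mmp8 (chr9:7558179-7558428, plus strand), 1 calprotectin gene and 3 granule genes. The stretches of Ngp and Ltf stop where the Gencode gene model begins and so are shorter than their windows, and a second match of Ngp nearer its RefSeq start is not shown.
S100a9: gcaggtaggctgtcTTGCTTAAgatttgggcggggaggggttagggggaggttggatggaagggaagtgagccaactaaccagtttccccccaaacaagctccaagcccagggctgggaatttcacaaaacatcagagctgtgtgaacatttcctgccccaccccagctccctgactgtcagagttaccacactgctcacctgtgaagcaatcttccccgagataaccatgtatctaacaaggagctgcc
Ngp: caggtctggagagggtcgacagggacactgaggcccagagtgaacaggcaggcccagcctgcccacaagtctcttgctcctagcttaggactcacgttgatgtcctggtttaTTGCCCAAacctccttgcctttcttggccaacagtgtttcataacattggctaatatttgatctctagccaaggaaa
Ltf: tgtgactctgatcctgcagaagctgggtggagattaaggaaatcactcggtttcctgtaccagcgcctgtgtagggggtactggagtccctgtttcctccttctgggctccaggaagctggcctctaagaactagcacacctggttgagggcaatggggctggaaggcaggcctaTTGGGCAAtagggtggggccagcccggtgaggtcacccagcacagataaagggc
Mmp8: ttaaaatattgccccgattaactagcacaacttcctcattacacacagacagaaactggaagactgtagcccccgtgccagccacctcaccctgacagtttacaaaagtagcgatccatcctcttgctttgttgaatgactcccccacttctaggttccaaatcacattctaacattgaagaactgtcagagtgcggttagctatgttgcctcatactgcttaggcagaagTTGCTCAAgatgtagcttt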

How the data were processed

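The data are mRNA libraries (stranded, bulk) of 9 organs from 18 mice. Per the labels, the authors aligned reads with TopHat2 2.1.1 to GRCm38.p5, allowing 2 mismatches, and counted uniquely mapped reads per gene of Gencode M16 with HTSeq 0.9.1. The deposited values are raw counts per gene. All libraries were used but 5, which the study's sample table leaves out: BRN 8 h replicate 3 (130701 counts), BRN 18 h replicate 1 (279848), STM 12 h replicate 3 (4590060), iBAT 22 h replicate 1 (2700482) and psWAT 22 h replicate 2 (2944552).

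CPM is a gene's counts scaled to the library's total of gene counts, and logs use log2(CPM+1). Exon lengths and distances come from Gencode M21. Within an organ 6 fasting times were compared in 1 fit with edgeR 4.0.16 (R 4.3.3, limma 3.58.1; TMM, robust quasi-likelihood), jointly and each time against 0 h (adjusted p under 0.05, for single times also an absolute log2 fold change over 1), on genes reaching the CPM of 10 counts in the organ's median library in 3 libraries. Organs were compared in 1 fit of all libraries. BH was applied over all genes of a comparison, never over the members alone. DESeq2 1.42.0 was the other tool. Correlations used 100000 permutations, the smallest possible p being 1e-05, and needed 3 counts in 12 animals. Python 3.11.15, pandas 2.3.3, numpy 2.4.6, scipy 1.17.1 and matplotlib 3.10.9 were used, and the code was tested on simulated data.

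No 2 columns are identical. Replicate pairs differ by more than counting error, with chi-squared per degree of freedom of at least 1.84 and a median of 17.7 over all pairs within groups. Replicate numbers were checked as pairs across times: in every organ the lowest correlation of libraries with the same number was negative (OB -0.353, psWAT -0.773), so the number was not used as a pair except as an alternative. Across organs of 1 time the number names the animal, per the labels.

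The members and the lists were chosen with earlier results on this series known. Named are all 10 members, and from each other list the genes passing the joint test in the organ spoken of (at most 4, by adjusted p) and the most abundant gene. For likeness to S100a8, the 8 other genes with the highest r among genes with 10 counts in 40 libraries are named. Genes named beyond this rule (Mpo, Elane, Ly6g, Gfi1, Il17a, Csn3, Cfd, the epididymal genes and those alike within single organs) were chosen after their values were seen. Of the organ marker lists the mean sums in their own organ were OB 1302, BRN 135, CBL 3970, BST 596, STM 38302, LIV 83367 and iBAT 8345 CPM, and for the white fat list 11517 CPM in pgWAT and 2400 CPM in psWAT.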

Additional observations from a re-analysis of the deposited data

Results flagged for a closer look

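The library of BRN 18 h replicate 1, left out of the main comparisons, shows Camp at 17.9 CPM, above the highest 0 h value of BRN, 0.835 CPM. It drew attention as a signal in data outside those comparisons, and it rests on 5 counts in a library of 279848. At this depth the value and the shallow sequencing cannot be told apart.

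The library of STM 12 h replicate 3, also left out of them, shows Csf3r at 3.49 CPM (16 counts), above the highest 0 h value of STM, 0.774 CPM. It too is a signal in data outside the main comparisons, and no other library of that animal was tested against it.

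Ltf at 18 h against 0 h lay lower in all STM libraries (mean log2(CPM+1) -1.51) and higher in all psWAT libraries (3.71), a difference of -5.22. It drew attention because the 2 organs moved in opposite ways, and the difference was not tested. In STM the 0 h and 18 h libraries ran on different lanes, the change with lane as a covariate being log2 -1.94 (SE 1.03, adjusted p = 0.619), and in psWAT 2 of the 3 libraries at 18 h also carry squamous epithelium and Csn3 RNA.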

How the results depend on the processing

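Of 310 alternative values of 34 results, 63 moved and the others stayed within 1.5 times the main count; 6 results kept the same count throughout. The cause was not tested. Counts below are members passing. Without the filter 10 members were tested in each organ but STM, which had 9. The joint test then called 14.2% of genes in OB, 7.00% in BRN, 8.09% in CBL, 2.45% in BST, 15.8% in LIV and 16.3% in iBAT. At any time against 0 h it called 1.06% in OB, 7.23% in BRN, 0.118% in BST, 5.05% in STM and 4.47% in LIV. With the libraries left out added back, 2.20% of psWAT genes passed jointly, with 10 members tested. Joint test, main 0 except iBAT 1: DESeq2 OB 4, BST 2, STM 1, LIV 3, iBAT 2, pgWAT 1, psWAT 3; no filter OB 8, BRN 1, CBL 3, BST 5, LIV 5, iBAT 3; with the libraries left out psWAT 1; leaving out 1 replicate OB 0 to 2, LIV 0 to 1, iBAT 0 to 2, psWAT 0 to 3. Any time against 0 h, main 0 except STM 1 and iBAT 1: no filter OB 7, BRN 1, BST 1, STM 0, LIV 4; lane STM 0; DESeq2 iBAT 2, pgWAT 1; leaving out 1 replicate OB 0 to 1, BRN 0 to 2, STM 0 to 0, iBAT 0 to 1, psWAT 0 to 1. Without the added far libraries (iBAT 22 h replicate 2, BRN 12 h replicate 2) iBAT had 0 in both tests. Leaving out a replicate, or the far iBAT library, leaves 1 library at some times, which the fit assumes to vary like the other groups. The replicate block (replicate number) changed no time count.

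Steps between organs of 8: with animal as replicate block Camp 2 (main 1) and Ltf 1 (main 2), with no other count moved over 1.5 times and no call changed beside those printed in the report; DESeq2 Mmp8 0 (main 1); leaving out 1 replicate S100a9 1 to 3, Camp 0 to 2, Ltf 1 to 2, Lcn2 1 to 3, Retnlg 0 to 1, Mmp8 0 to 1, Csf3r 2 to 4. Relations between organs, main S100a8 2 and Lcn2 6: without the 2 farthest animals 1 and 0, without animals 5 and 6 0 and 0, and S100a8 as deviation from the time mean 4, from the lane mean 4, with a pseudocount of 0.1 CPM 1. Haemoglobin with Lcn2, main 1: 0 without the 2 farthest, by time mean, by lane mean and without animals 5 and 6. Marker relations passing, main 10.04% of 906: 1.99% without the 2 farthest, 16.8% by time mean and 5.74% without animals 5 and 6. Settings without animals 5 and 6 or the far libraries and all marker relations were added after seeing the data. Lane as covariate cannot be estimated in CBL, BST and iBAT. Most members lie within a few counts of the floor in most organs, so that small changes in them cannot be seen.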
